A study of Mus musculus with 15 samples.

Results

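The change in dural macrophages across birth was measured here, by comparing 3 bulk RNA-seq libraries from postnatal day 3 (P3) with 3 from the embryonic age E14.5. These 6 libraries were chosen by the age in their labels, out of 15 libraries at 5 ages, and all 14683 genes that passed the filter on low counts were tested. The cells came from the dura mater, the outer membrane around the brain, of C57BL/6J mice of the genotype Cx3cr1GFP/wt, and no treatment was given at either age. In these animals 1 copy of Cx3cr1, the fractalkine receptor gene, carries GFP in its place, so both ages share that loss. Sample titles give CD206, the mannose receptor encoded by Mrc1, as the sorted marker and name no second gate. The series text speaks of 3 to 5 individual mice per age without saying which mouse is in which library, so the tests rest on the spread among labelled replicates, which may in part be technical. Both ages belong to 1 sequencing project.

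Macrophages of the brain's borders are seeded in the embryo and then mature in place while the skull, the dura and its vessels grow around them. After birth these cells take up debris, iron and lipoproteins, present antigen on MHC molecules and respond to interferons. Dividing fetal macrophages are known for high activity of the replication and ribosome-building programs, and for glycolysis.

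Total counts were 20540444, 23580499 and 25171858 in the E14.5 libraries and 30281520, 17550170 and 21404379 in the P3 libraries (replicates 1, 2 and 3 in that order, as in every sequence of values that follows). Levels of single genes are CPM scaled by edgeR's TMM factors (TMM CPM), and sums over a marker list are CPM of the total count. Correlations of log2 CPM between libraries were 0.930 to 0.948 within E14.5, 0.899 to 0.925 within P3 and 0.873 to 0.924 between the ages. Macrophage identity genes were high at both ages: Csf1r, the receptor gene for the main macrophage growth factor, was at 3843, 4371 and 4539 TMM CPM at E14.5 and at 4522, 4114 and 4063 at P3. The F4/80 gene Adgre1 (log2 change 0.12, adjusted p = 0.834), the CD45 gene Ptprc (-0.30, adjusted p = 0.43) and Mrc1 itself (-0.24, adjusted p = 0.822) did not pass the test. Cx3cr1 had 20003, 15804 and 19839 counts at E14.5 and 16636, 8558 and 7416 at P3. Its share of the total was lower in each P3 library than in each E14.5 library, but it was not called.

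The embryonic libraries differed from each other in sex-linked genes. Xist, the RNA that silences 1 X chromosome in female cells, was at 71.5, 49.8 and 2.82 TMM CPM at E14.5, and over the 3 P3 libraries it had 0, 2 and 0 counts. Ddx3y, a gene of the Y chromosome, was at 0.434, 0.476 and 54.4 TMM CPM at E14.5 and at 60.6, 74.7 and 46.8 at P3. E14.5 replicates 1 and 2 thus carried the female pattern, and they were the only 2 of the 15 libraries with Xist above 10 TMM CPM. Of 465 tested X-linked genes, 6 were called: Atp6ap1, Cfp, Dnase1l1 and Tnmd upward, Rbbp7 and Xist downward. That share was not above the 2.06% called among all genes tested. Without these 2 embryonic libraries the comparison rests on 1 E14.5 library, assumed to vary like the libraries of other ages. It then called 22 genes, all among the 302 described next, while the log2 changes kept a median of 0.984 of their size. The part of sex in the results was not tested beyond these values.

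In all, 302 of 14683 genes (2.06%) differed between the ages at an adjusted p under 0.05 (edgeR quasi-likelihood test, Benjamini-Hochberg over all genes tested). Rises outnumbered falls, with 245 genes (1.67%) higher at P3 and 57 (0.388%) lower. A change of at least 2-fold was reached by 156 genes upward (1.06%) and 30 downward (0.204%). Rising genes had a median log2 change of 1.25, falling genes of -1.03, and all genes tested of 0.01. Libraries of the ages did not overlap for 3879 genes (26.4%), of which 1965 (13.4%) were higher and 1914 (13%) lower at P3, an even split unlike that of the called genes. Leaving out 1 library at a time kept 94 of the 302 calls in all 6 fits, 86 of the rises and 8 of the falls, and left 127 to 198 genes called per fit, with the lowest count without E14.5 replicate 2. A fit of these 6 libraries alone called 681 genes, 373 up and 308 down, so that 54.8% of calls were rises there against 81.1% in the fit with all ages.

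**Figure D1:**
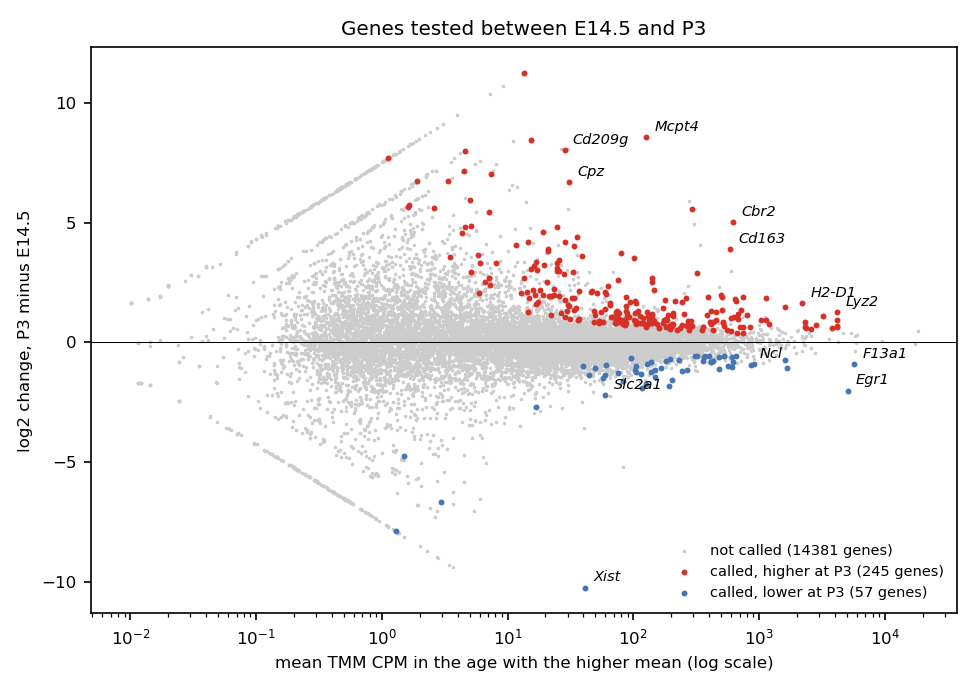
Log2 change from E14.5 to P3 (vertical axis) against the mean TMM CPM in the age with the higher mean (horizontal axis, log scale), one point per tested gene. The 245 genes called higher at P3 are red, the 57 called lower are blue, and all others grey; diagonal rows at the left are genes with few counts in 1 age.

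Several markers of border macrophages were among the large rises. Of 31 tested members of the border-associated macrophage list, 12 rose and 1 fell, with a median log2 change of 0.56. Without the 2 Xist-positive embryonic libraries, 5 stayed called (Cd163, Cbr2, Cd209b, Cd209f and Cd209g). Cbr2, which encodes a carbonyl reductase and marks these cells, was at 20.1, 18.5 and 19.2 TMM CPM in the embryo and at 703, 539 and 626 at P3. Every P3 library thus lay far above every E14.5 library, and the spread within each age was small (log2 change 5.01 ± 0.14 SE, adjusted p = 4.33e-11).

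Cd163, which encodes the receptor that clears hemoglobin bound to haptoglobin, was at 27.3, 35.6 and 55.98 TMM CPM at E14.5 and at 622, 558 and 592 at P3. Its log2 change was 3.90 ± 0.36 (adjusted p = 7.46e-05). Lectin genes of the Cd209 family, whose products bind sugars on microbes, went from near absence to clear expression. Cd209f was at 8.29, 6.93 and 3.13 TMM CPM and then at 356, 244 and 276 (log2 change 5.58 ± 0.43, adjusted p = 1.25e-05). Cd209g had 6, 1 and 1 counts in the embryonic libraries and 1359, 366 and 605 counts at P3, and Cd209b had 0.130, 0 and 0 TMM CPM and then 18.8, 15.5 and 12.01. Cd209 genes resemble each other, and how reads that fit several genes were counted is not given in the sources used here, so the split between them is uncertain.

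The rest of this group changed less. Clec10a and Mgl2, galactose-binding lectin genes, rose by 1.45 ± 0.16 and 1.12 ± 0.14 on the log2 scale (adjusted p = 0.000359 and 0.000763). Clec4n, the dectin-2 gene, rose by 1.33 ± 0.27 (adjusted p = 0.0212), a call lost without any 1 of the 6 libraries. Ms4a7 rose by 0.93 ± 0.17, and Pf4, a chemokine gene that these cells express at a high level, by 0.93 ± 0.15, from a mean of 2196 ± 159 to 4179 ± 489 TMM CPM (SD). Tslp, a cytokine gene, had a mean of 3.995 ± 0.222 and then of 18.3 ± 9.07 TMM CPM. Members that did not pass included Lyve1 (log2 change -0.54, adjusted p = 0.58), Stab1 (-0.28, adjusted p = 0.815), Folr2 (0.56, adjusted p = 0.279) and Maf (0.37, adjusted p = 0.534). Lyve1 was at 1223, 1395 and 1483 TMM CPM in the embryo and at 1188, 696 and 937 at P3.

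F13a1, the factor XIII transglutaminase gene, was the member that fell. It was at 4736, 6035 and 6240 TMM CPM at E14.5 and at 3148, 3084 and 2818 at P3 (log2 change -0.91 ± 0.19, adjusted p = 0.0225). Its level therefore stayed among the highest of all genes at both ages. The call held without E14.5 replicate 1 and was lost without each of the other 5 libraries (adjusted p up to 0.115).

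**Figure D2:**
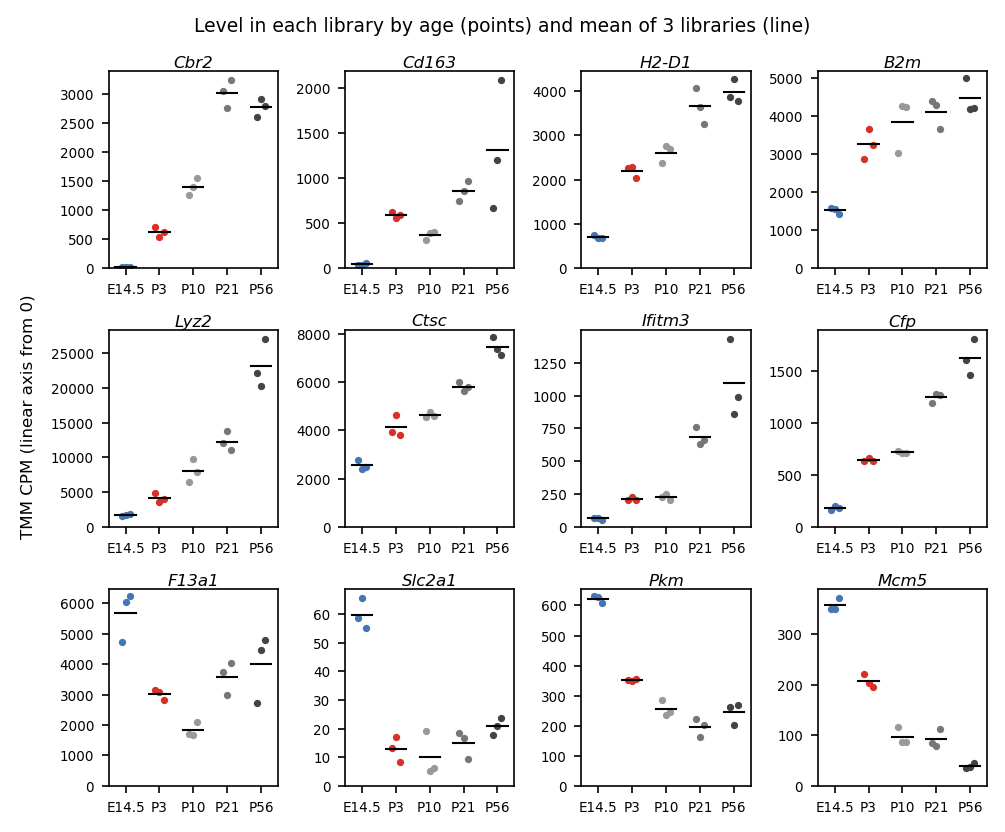
TMM CPM (linear axes from 0) of 12 genes in each of the 15 libraries, by age; points are libraries and lines are means of 3. Cbr2 stands at 19.3 in the embryo and 622 at P3 on average, and the libraries of E14.5 (blue) and P3 (red) do not overlap for any of the 12 genes.

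MHC class I molecules display peptides from inside the cell. Of 22 tested genes of this pathway, 9 rose and 0 fell, and the median log2 change was 1.13. For 20 of them every P3 library lay above every E14.5 library. Among all genes tested, 1.67% rose and 13.4% were higher at P3 without overlap. Counts of rises were 6 to 9 with 1 library left out and 4 without the Xist-positive embryonic libraries (H2-D1, H2-K1, H2-M3 and Psmb9). H2-D1, a classical heavy chain gene, was at 750, 677 and 674 TMM CPM in the embryo and at 2269, 2272 and 2030 at P3. H2-K1 was at 381, 316 and 253 and then at 1177, 1162 and 1047. H2-D1 and H2-K1 changed by far more than their spread (log2 change 1.64 ± 0.11 and 1.83 ± 0.15, adjusted p = 1.45e-06 and 1.51e-05), with the reservation that class I genes share reads.

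Non-classical heavy chains moved with them. H2-M3, which presents bacterial formylated peptides, was at 22.3, 22.4 and 25.9 TMM CPM and then at 84.7, 86.6 and 93.0 (1.90 ± 0.17, adjusted p = 3.1e-05), and H2-T23 rose by 1.70 ± 0.19 (adjusted p = 0.000297). B2m, the light chain shared by all of them, was at 1567, 1544 and 1424 TMM CPM and then at 2877, 3650 and 3230 (1.11 ± 0.14, adjusted p = 0.000873). Peptide supply rose as well: Psmb9 and Psmb8, subunits of the immunoproteasome, by 1.25 ± 0.19 and 0.89 ± 0.16, and Tap1, a subunit of the peptide transporter into the endoplasmic reticulum, by 1.07 ± 0.20 (adjusted p = 0.00319, 0.0116 and 0.012). Psmb9 kept its call without each of the 6 libraries, while Tap1 lost it without E14.5 replicate 2, P3 replicate 1 or P3 replicate 2, and Psmb8 without E14.5 replicate 2 or 3 or P3 replicate 2 (adjusted p up to 0.0769). Calr (0.17, adjusted p = 0.674) and Pdia3 (-0.10, adjusted p = 0.759), general chaperones of the same pathway, did not pass. Nlrc5, the class I transactivator gene, was at 2.04, 2.09 and 2.61 TMM CPM and then at 8.04, 12.6 and 8.03, without overlap but also without passing (2.08 ± 0.90, adjusted p = 0.339).

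Tap1 and Psmb9 are read in opposite directions from starts 226 bases apart, in the RefSeq sequences for GRCm38.p6. Since both rose, the stretch between the starts is shown, from chr17:34187331-34187555, on the strand of Tap1, with the match to an E2F pattern in capitals. It holds no match to the interferon response element searched for below.
Tap1: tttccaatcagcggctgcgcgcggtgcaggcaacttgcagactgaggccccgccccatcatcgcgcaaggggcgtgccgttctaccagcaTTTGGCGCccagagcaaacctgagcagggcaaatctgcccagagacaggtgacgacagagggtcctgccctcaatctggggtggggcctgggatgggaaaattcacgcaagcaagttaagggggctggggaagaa

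Interferon-stimulated genes rose in 12 of 42 tested members, and 0 fell (median log2 change 0.72). Leaving out 1 library gave 8 to 10 rises, and leaving out the Xist-positive embryonic libraries gave 2 (Ifitm3 and Ly6e). Ifitm3, whose product blocks virus entry at membranes, was at 69.1, 69.2 and 54.6 TMM CPM in the embryo and at 207, 229 and 205 at P3 (1.73 ± 0.17, adjusted p = 0.000134). Ly6e, a GPI-anchored surface protein gene, was at 680, 524 and 515 and then at 1506, 1909 and 1418 (1.49 ± 0.15, adjusted p = 0.000114). Ifi27l2a was at 115, 140 and 121 and then at 521, 514 and 460, with even values within each age (1.99 ± 0.29, adjusted p = 0.00257). Oas1a, a sensor of double-stranded RNA, rose by 1.298 ± 0.20 and Lgals3bp by 1.15 ± 0.18 (adjusted p = 0.00349 and 0.00371).

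Members of the class at low levels rose too. Isg15, a ubiquitin-like modifier, was at 8.55, 14.6 and 9.18 TMM CPM and then at 31.6, 29.8 and 30.5 (1.51 ± 0.29, adjusted p = 0.0134). Irf7, the transcription factor gene that amplifies the interferon response, was at 24.8, 40.5 and 27.4 and then at 117, 89.4 and 56.8 (1.505 ± 0.31, adjusted p = 0.0225). The calls of Isg15 and Irf7 were lost without E14.5 replicate 1 or 3, that of Irf7 also without P3 replicate 1 or 2 (adjusted p up to 0.0733 and 0.12). Irf8 (0.06, adjusted p = 0.945) did not pass.

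Promoter sequences show what part of these genes share. RefSeq windows of 300 bases, from 250 before to 50 after the first listed start, were found for 10731 of the tested genes, 188 of the 245 that rose and 43 of the 57 that fell. The interferon response element was searched for on both strands as GAAA, then any 2 bases, then GAAA. It was in 3.21% of all windows, in 14 (7.45%) of those of rising genes and in 0 of those of falling genes, and in 17 of 30 windows (56.7%) of the interferon list. Matches are letters in a window and say nothing of binding. Up to 25 bases on each side of the match are shown for 7 risen genes, all before the start, 5′ to 3′ on the strand of the gene with the match in capitals; they lie at chr4:156200862-156200921 (Isg15, minus strand), chr5:120907526-120907570 (Oas1a, minus), chr8:71537568-71537627 (Bst2, minus), chr2:122147523-122147582 (B2m, plus), chr17:36032791-36032850 (H2-T23, minus), chr1:173913049-173913108 (Ifi211, minus) and chr1:173880189-173880248 (Mndal, minus) of GRCm38.p6.
Isg15: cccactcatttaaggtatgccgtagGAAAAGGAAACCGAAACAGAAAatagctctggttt
Oas1a: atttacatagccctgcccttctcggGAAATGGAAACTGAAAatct
Bst2: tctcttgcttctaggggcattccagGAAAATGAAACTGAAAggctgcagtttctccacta
B2m: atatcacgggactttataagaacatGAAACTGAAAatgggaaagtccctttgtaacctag
H2-T23: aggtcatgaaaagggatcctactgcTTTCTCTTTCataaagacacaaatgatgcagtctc
Ifi211: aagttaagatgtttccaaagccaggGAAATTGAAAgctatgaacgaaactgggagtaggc
Mndal: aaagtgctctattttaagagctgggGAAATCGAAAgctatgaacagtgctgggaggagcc

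Isg15 holds 3 overlapping matches in its stretch, Oas1a and Bst2 hold 2 each, and H2-T23 holds its match on the opposite strand. The genes shown are a selection. Risen genes with a match before the start also included Clec4b1, Nectin4, Oas1g, Pld3 and Tgfbi. For Oas1a and Bst2 the sequence after the listed start was not found in a GENCODE transcript of the gene. In the windows of class I genes, the interferon element was found in 5 of 19 and the CCAAT box in 14 of 19 (73.7%), against 39.1% of all windows for the CCAAT box. Other patterns searched for were found in risen genes and in all windows as follows: the hypoxia response element core in 48.9% against 62.2%, the PU.1 core in 4.79% against 3.37%, an NF-kB site in 1.60% against 0.783%, the CLEAR element in 0.532% against 0.755% and the CArG box in 3.72% against 1.295%. No test was made of these shares.

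MHC class II genes were at low levels and rose in 5 of 17 tested members, with 0 falls (median log2 change 1.25). Rises numbered 2 to 5 with 1 library left out and 0 without the Xist-positive embryonic libraries. Cd74, the invariant chain that guides class II molecules, was at 55.6, 54.2 and 50.8 TMM CPM in the embryo and at 211, 200 and 129 at P3 (1.75 ± 0.25, adjusted p = 0.00203). H2-DMa, which helps load peptide, was at 10.7, 10.4 and 8.70 and then at 22.1, 26.4 and 17.8 (1.15 ± 0.19, adjusted p = 0.0055). H2-Aa, a class II alpha chain gene, was at 7.46, 1.10 and 0.939 and then at 39.5, 22.02 and 12.3, so that its highest embryonic library came close to its lowest P3 library (2.99 ± 0.70, adjusted p = 0.0425). H2-Ab1 (1.89, adjusted p = 0.14) and H2-Eb1 (2.75, adjusted p = 0.117), their partner genes, overlapped between the ages and did not pass. Cd40, a costimulatory receptor gene, was at 1.22, 2.13 and 0.800 and then at 10.9, 7.60 and 3.22 (2.39 ± 0.51, adjusted p = 0.0253). Without E14.5 replicate 3 or P3 replicate 1 or 2, H2-Aa and Cd40 were no longer called, and neither was H2-Aa without E14.5 replicate 2 or Cd40 without E14.5 replicate 1 (adjusted p up to 0.183 and 0.12).

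Genes of innate defence that rose included members of the complement and Fc receptor lists, a lysozyme gene and 1 pattern recognition gene, Cd14. Complement genes rose in 4 of 22 tested members and 0 fell (median log2 change 0.54), with 1 rise (Cfp) without the Xist-positive embryonic libraries. Cfp, the properdin gene, which stabilises the alternative pathway enzyme, was at 163, 199 and 180 TMM CPM and then at 632, 662 and 631 (1.83 ± 0.11, adjusted p = 5.71e-07). This X-linked gene was as high in the Xist-negative embryonic library as in the 2 others. C1qa and C1qc, chains of the molecule that starts the classical pathway, rose by 0.83 ± 0.10 and 0.64 ± 0.11 (adjusted p = 0.000668 and 0.0055). Cd55, which protects cells from complement, was at 3.34, 8.54 and 5.46 TMM CPM and then at 18.2, 24.1 and 24.4 (1.94 ± 0.34, adjusted p = 0.00873).

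Fc receptor genes rose in 2 of 9 tested members, and 0 fell, with 1 rise (Fcgr2b) without the Xist-positive embryonic libraries. Fcgr2b, the inhibitory receptor for IgG, was at 167, 122 and 120 TMM CPM in the embryo and at 501, 524 and 486 at P3 (1.89 ± 0.21, adjusted p = 0.000297). Fcgrt, the neonatal Fc receptor gene that recycles IgG and carries maternal antibody in some tissues, was at 1752, 1678 and 1815 and then at 3470, 2539 and 2556 (0.71 ± 0.13, adjusted p = 0.00987), a call lost without E14.5 replicate 2 (adjusted p = 0.0566). Lyz2, the macrophage lysozyme gene, was at 1634, 1732 and 1809 and then at 4881, 3579 and 4004 (1.27 ± 0.16, adjusted p = 0.000819). Cd14, the lipopolysaccharide co-receptor gene, was the 1 member of 30 tested Toll-like receptor and sensing genes that rose (1.88 ± 0.30, adjusted p = 0.0053), and 0 fell; without the Xist-positive embryonic libraries 0 rose. It was at 199, 177 and 234 TMM CPM and then at 878, 784 and 586. The 30 genes had a median log2 change of 0.02, with 16 positive and 14 negative.

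Lysosomes break down what macrophages take up. Lysosome genes rose in 7 of 38 tested members with 0 falls (median log2 change 0.30, 33 of 38 positive), 5 to 6 of them with 1 library left out and 0 without the Xist-positive embryonic libraries. Ctsc, a protease gene that activates other proteases, was at 2770, 2389 and 2486 TMM CPM and then at 3928, 4655 and 3819 (0.70 ± 0.09, adjusted p = 0.00117). Hgsnat, for an enzyme of heparan sulfate breakdown, was at 607, 525 and 515 and then at 1169, 987 and 975 (0.93 ± 0.13, adjusted p = 0.00178). Ctsh rose by 0.86 ± 0.13 and Npc2, the lysosomal cholesterol carrier gene, by 0.63 ± 0.11 (adjusted p = 0.00314 and 0.00795).

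Iron and heme genes rose in 6 of 25 tested members, and 0 fell (median log2 change 0.35), with 2 to 6 rises when 1 library was left out and 0 without the Xist-positive embryonic libraries. Spic, the transcription factor gene known from macrophages that recycle red cells, was at 3.52, 3.45 and 2.71 TMM CPM and then at 19.8, 36.2 and 20.4 (2.98 ± 0.38, adjusted p = 0.000934). Its known partners in that program did not pass: Hmox1, for heme oxygenase, was at 516, 1031 and 970 and then at 341, 1516 and 1299, with wide overlap (0.33, adjusted p = 0.923), and Slc40a1, the iron exporter, had a log2 change of 0.81 (adjusted p = 0.399). Blvrb, biliverdin reductase, rose by 0.68 ± 0.14 (adjusted p = 0.0244) and Trf, transferrin, by 0.65 ± 0.13 (adjusted p = 0.0159). The calls of these 2 genes were lost without E14.5 replicate 2 or 3 or P3 replicate 2 or 3, and that of Blvrb also without P3 replicate 1 (adjusted p up to 0.138 and 0.0949). Pltp, the phospholipid transfer protein gene of lipoproteins, was at 67.3, 67.9 and 82.7 and then at 276, 276 and 233 (1.85 ± 0.12, adjusted p = 1.45e-06). Among detoxification genes 5 of 37 rose and 0 fell, with 1 rise (Sult1a1) without the Xist-positive embryonic libraries. Sult1a1, a sulfotransferase gene, was at 12.4, 14.04 and 11.2 and then at 62.5, 80.9 and 84.3 (2.60 ± 0.26, adjusted p = 0.000114).

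Secreted signals changed in both directions. Of 34 tested chemokine and cytokine genes, 10 rose and 1 fell (median log2 change 0.69), with 5 to 10 rises when 1 library was left out and 1 (Ccl8) without the Xist-positive embryonic libraries. Il1b was at 171, 199 and 195 TMM CPM in the embryo and at 443, 448 and 468 at P3 (1.27 ± 0.15, adjusted p = 0.000442). Tnf, in contrast, was at 491, 577 and 638 and then at 293, 294 and 271, the member that fell (-0.99 ± 0.16, adjusted p = 0.00549). Both are inflammatory cytokine genes that are often induced together, and here their libraries separated in opposite directions. Il10, an anti-inflammatory cytokine gene, was at 1.17, 5.42 and 2.02 and then at 15.6, 38.4 and 20.04 (3.09 ± 0.56, adjusted p = 0.0105), a call lost without E14.5 replicate 3 (adjusted p = 0.0536).

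Monocyte attractants rose as well. Ccl8 was at 2.17, 1.21 and 1.04 TMM CPM and then at 11.1, 31.6 and 19.7 (3.83 ± 0.44, adjusted p = 0.000365), and Ccl7 was at 181, 201 and 209 and then at 445, 919 and 611 (1.74 ± 0.33, adjusted p = 0.0125). Ccl2 rose by 1.16 ± 0.28 (adjusted p = 0.0475) and Cxcl1, a neutrophil attractant, by 1.71 ± 0.31 (adjusted p = 0.0115). Il18 was at 93.0, 89.0 and 75.3 and then at 177, 183 and 203 (1.13 ± 0.22, adjusted p = 0.0159). Ccl2 and Ccl7 were highest in P3 replicate 2, and without that library, or E14.5 replicate 1 or 2, neither was called (adjusted p up to 0.214 and 0.0696); Ccl2 was also lost without E14.5 replicate 3 or P3 replicate 3. Il18 lost its call without E14.5 replicate 2 or 3 or P3 replicate 2 or 3, and Cxcl1 without E14.5 replicate 1 or 2 (adjusted p up to 0.0753 and 0.0613).

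Among the falls, immediate early genes stood out by level. These genes switch on within minutes of a stimulus, and also during tissue dissociation. Of 35 tested members of the immediate early and MAP kinase feedback list, 5 fell and 1 rose (median log2 change -0.19), with 3 to 5 falls when 1 library was left out and 1 (Egr1) without the Xist-positive embryonic libraries. Egr1 was at 5005, 4864 and 5294 TMM CPM in the embryo and at 1056, 1373 and 1319 at P3 (-2.02 ± 0.17, adjusted p = 2.5e-05). Jun was at 1697, 1525 and 1787 and then at 879, 714 and 767 (-1.09 ± 0.20, adjusted p = 0.0115). Dusp1, a phosphatase gene that ends MAP kinase signals, was at 1635, 1571 and 1629 and then at 972, 912 and 1008 (-0.74 ± 0.10, adjusted p = 0.00107).

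Ier5 (-1.11 ± 0.18, adjusted p = 0.00463) and Ier2 (-0.89 ± 0.19, adjusted p = 0.0292) fell as well, while Ier3 rose by 0.76 ± 0.15 (adjusted p = 0.0176). The best known members of the class did not pass: Fos was at 2734, 1982 and 2140 TMM CPM and then at 2204, 2215 and 1965 (-0.10, adjusted p = 0.868), and Junb at 1705, 1485 and 1663 and then at 1717, 1827 and 1443 (0.04, adjusted p = 0.981). Nr4a1, another early gene, which is in the transcription factor list, was at 185, 294 and 361 and then at 699, 819 and 641, a rise (1.36 ± 0.28, adjusted p = 0.0211). Nr4a1 and Ier3 each lost their call without 5 of the 6 libraries, Nr4a1 keeping it without E14.5 replicate 3 and Ier3 without P3 replicate 3 (adjusted p up to 0.0972 and 0.1004). Jun lost its call without P3 replicate 2 or 3, and Ier2 without E14.5 replicate 2 or 3 or P3 replicate 1 or 3 (adjusted p up to 0.0634 and 0.151). How the cells were dissociated is not given in the sources used here, and its part in these levels was not tested.

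**Figure D3:**
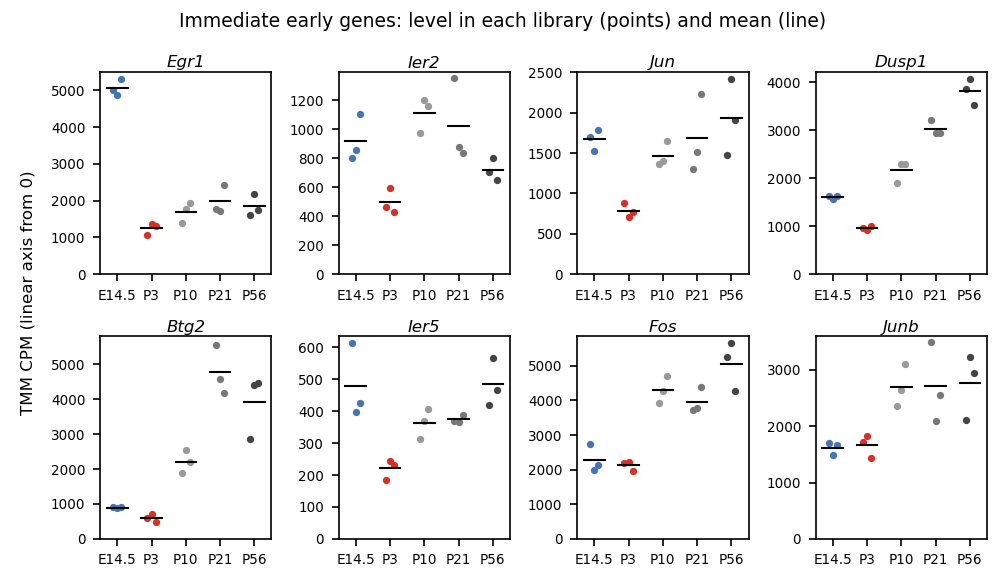
TMM CPM (linear axes from 0) of 8 immediate early genes in each of the 15 libraries by age; points are libraries and lines are means of 3. The P3 libraries (red) lie below the E14.5 (blue) and P10 libraries for Ier2, Jun, Dusp1, Btg2 and Ier5, while Fos and Junb overlap between E14.5 and P3.

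Genes of glycolysis, which breaks glucose down to pyruvate, fell in 5 of 23 tested members, and 0 rose (median log2 change -0.36). Falls numbered 1 to 2 with 1 library left out and 0 without the Xist-positive embryonic libraries. Pkm, pyruvate kinase, was at 631, 629 and 607 TMM CPM in the embryo and at 353, 350 and 354 at P3 (-0.82 ± 0.14, adjusted p = 0.00633), and it alone of the 5 kept its call without each of the 6 libraries. Pfkl, the phosphofructokinase that commits sugar to the pathway, was at 157, 164 and 181 and then at 68.8, 57.8 and 113 (-1.07 ± 0.24, adjusted p = 0.0325). Aldoa (-0.55 ± 0.11, adjusted p = 0.0211), Gpi1 (-0.56 ± 0.12, adjusted p = 0.0318) and Tpi1 (-0.62 ± 0.15, adjusted p = 0.0436) were each lost without 5 or 6 of the 6 libraries (adjusted p up to 0.183), and Pfkl without 5 (adjusted p up to 0.147).

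Slc2a1, the main glucose transporter gene, was at 58.7, 65.6 and 54.9 TMM CPM and then at 13.2, 17.003 and 8.33, the 1 called member of 29 tested hypoxia response genes (-2.22 ± 0.47, adjusted p = 0.023). That call too was lost without any 1 of the 6 libraries (adjusted p up to 0.119). Ldha, which makes lactate, was at 966, 926 and 852 and then at 613, 500.1 and 564 and did not pass (-0.71 ± 0.17, adjusted p = 0.0517). Gapdh was listed at only 35.2 to 52.6 TMM CPM; it has many near-identical pseudogene copies, so its value is uncertain. Nuclear genes of oxidative phosphorylation had 0 of 29 called by edgeR (9 at an unadjusted p under 0.05; 1 rise by DESeq2) and a median log2 change of 0.30, with 24 of 29 positive. Cytosolic ribosomal protein genes had 0 of 30 called by edgeR (2 at an unadjusted p under 0.05; 1 rise by DESeq2) and a median of 0.03.

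Few cell cycle genes passed the test. Of 33 tested DNA replication genes, 3 fell and 0 rose, while 0.388% of all genes tested fell. The median log2 change of the 33 was -0.77, and 31 of 33 were negative. Of the 33, 25 were lower at P3 without overlap, against 13% of all genes tested. Falls numbered 0 to 1 with 1 library left out and 0 without the Xist-positive embryonic libraries. Mcm5, part of the helicase that opens replication origins, was at 350.0, 350.0 and 372 TMM CPM and then at 221, 204 and 195 (-0.79 ± 0.16, adjusted p = 0.0225). Mcm4, of the same complex, was at 267, 260 and 276 and then at 102, 140 and 113 (-1.18 ± 0.28, adjusted p = 0.0436). Uhrf1, whose product helps to copy DNA methylation to the new strand, was at 157, 136 and 153 and then at 59.7, 50.4 and 54.8 (-1.43 ± 0.31, adjusted p = 0.0266). All 3 calls were lost without any 1 of the 6 libraries (adjusted p up to 0.179), although the libraries of both ages stayed apart.

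Mitosis genes had 0 of 30 called by edgeR (4 at an unadjusted p under 0.05) and 0 by DESeq2, with 28 of 30 negative and a median log2 change of -0.66. Top2a, for the topoisomerase that separates chromosomes, was at 333, 297 and 292 TMM CPM and then at 119, 150.1 and 142 (-1.16 ± 0.70, adjusted p = 0.543), and Mki67 at 83.3, 64.5 and 71.1 and then at 29.4, 29.3 and 36.3 (-1.21 ± 0.88, adjusted p = 0.656). Cdkn1c, an imprinted inhibitor of the cell cycle, moved the other way, from 17.7, 20.4 and 35.3 to 87.4, 169 and 167 TMM CPM (2.53 ± 0.29, adjusted p = 0.000413). Ccnd2, a D-type cyclin gene outside the lists and picked after its values were seen, was at 10.8, 9.49 and 11.8 and then at 27.97, 44.5 and 69.3 (2.14 ± 0.32, adjusted p = 0.00322). In bulk samples such as these, fewer cells of a kind and less RNA per cell cannot be told apart.

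Ribosome-building genes fell in 3 of 26 tested members, and 0 rose (median log2 change -0.66, 25 of 26 negative), with 0 to 2 falls when 1 library was left out. Without the Xist-positive embryonic libraries 0 fell and the median was -0.43. Ncl, nucleolin, was at 953, 850 and 792 TMM CPM and then at 412, 472 and 479 (-0.93 ± 0.22, adjusted p = 0.0416). Nop58, a core protein of box C/D ribonucleoproteins, was at 141, 148 and 130.2 and then at 58.4, 73.2 and 48.0 (-1.22 ± 0.24, adjusted p = 0.0153), and Nolc1, a nucleolar chaperone, fell too (-1.15 ± 0.23, adjusted p = 0.0159). Ncl lost its call without any 1 library, Nop58 without 4 of the 6 and Nolc1 without E14.5 replicate 1 or P3 replicate 2 or 3 (adjusted p up to 0.166). Heat shock genes had 0 of 20 called by edgeR (7 at an unadjusted p under 0.05; 2 falls by DESeq2), with all 20 negative and a median of -0.43. Oncofetal genes had 0 of 13 called by edgeR (3 at an unadjusted p under 0.05; 2 falls by DESeq2) and a median of -0.66; Igf2bp1, an RNA-binding protein gene of fetal tissues, was at 30.7, 36.7 and 55.0 and then at 3.01, 4.03 and 3.26 and did not pass (-3.57 ± 0.93, adjusted p = 0.0721).

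Some falling replication and nucleolar genes held an E2F pattern near their starts (TTTCCCGC, TTTGGCGC or TTCCCGCC on either strand, where the first and the last can overlap). It was in 6.22% of all windows, in 5 of 43 (11.6%) of falling genes, in 3 of 188 (1.60%) of rising genes and in 14 of 26 (53.8%) of the DNA replication list; these shares were not tested. The 5 falling genes were Mcm5, Uhrf1, Ncl, Nop58 and Nolc1, shown here with the match in capitals on the strand of the gene, from chr8:75109335-75109392 (Mcm5, plus), chr17:56303264-56303321 (Uhrf1, plus), chr1:86359647-86359704 (Ncl, minus), chr1:59684872-59684929 (Nop58, plus) and chr19:46075705-46075762 (Nolc1, plus) of GRCm38.p6. For Mcm5, Ncl and Nolc1 the sequence after the listed start was not found in a GENCODE transcript of the gene. In the mitosis list, the cell cycle homology region (TTTGAA or TTCGAA) and the CCAAT box were each in 21 of 26 windows (80.8%), against 14.3% and 39.1% of all windows.
Mcm5: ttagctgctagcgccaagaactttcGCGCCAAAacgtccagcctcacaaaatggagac
Uhrf1: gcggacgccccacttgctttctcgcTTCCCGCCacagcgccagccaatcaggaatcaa
Ncl: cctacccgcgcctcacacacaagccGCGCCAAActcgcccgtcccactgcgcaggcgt
Nop58: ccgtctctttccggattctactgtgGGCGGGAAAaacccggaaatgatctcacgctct
Nolc1: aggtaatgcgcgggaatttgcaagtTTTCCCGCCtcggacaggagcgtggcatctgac

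**Figure D4:**
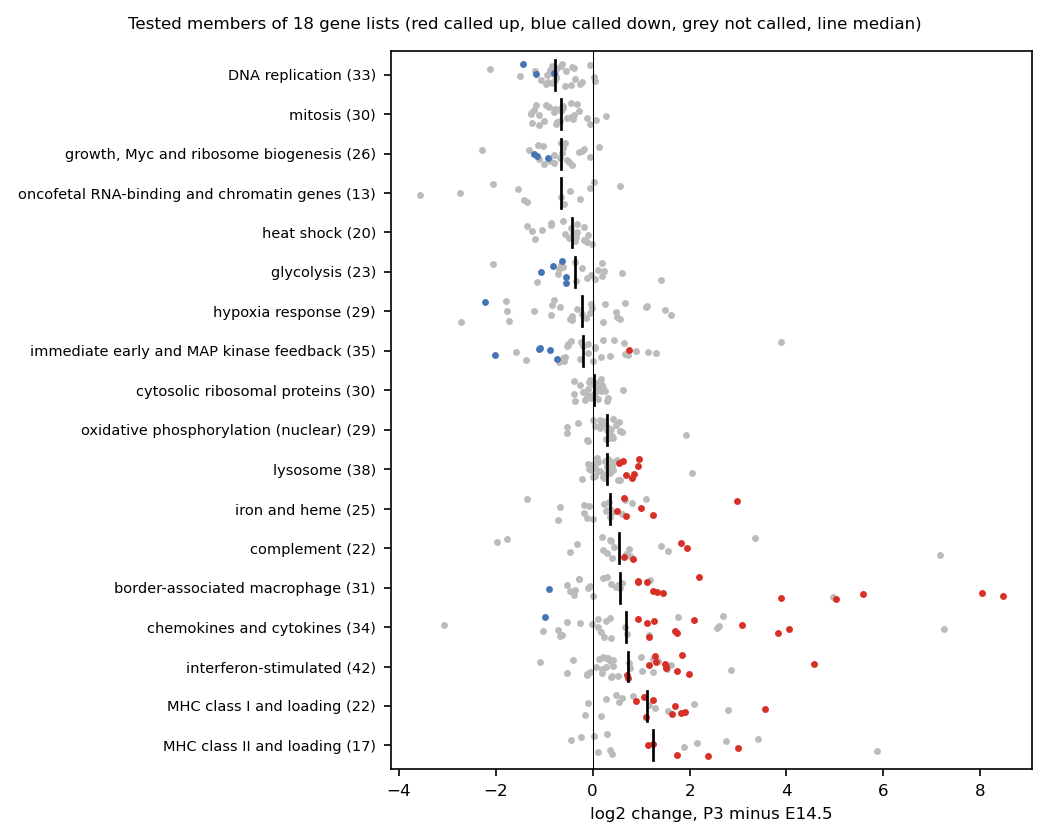
Log2 change from E14.5 to P3 of each tested member of 18 gene lists, with the number tested in parentheses; red points rose, blue points fell, grey points did not pass and black lines are medians. Medians run from -0.77 for DNA replication to 1.25 for MHC class II, against 0.01 for all genes tested.

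Receptors and surface proteins outside these groups also changed. Gpr84, a receptor for medium-chain fatty acids, was at 91.3, 75.2 and 82.9 TMM CPM and then at 26.6, 22.9 and 31.9 (-1.61 ± 0.34, adjusted p = 0.0225). The tetraspanin gene Cd9 was at 164, 111 and 106 and then at 43.2, 32.8 and 39.2 (-1.73 ± 0.40, adjusted p = 0.0384). Ptgs2, the inducible prostaglandin synthase gene, was at 112, 123 and 118 and then at 19.9, 35.9 and 37.1 (-1.93 ± 0.46, adjusted p = 0.0468). These falls had separate libraries but each lost its call without any 1 library (adjusted p up to 0.192). Itga6, a laminin-binding integrin, fell too (-1.20 ± 0.23, adjusted p = 0.0129), a call lost without 3 of the 6 libraries. Vcam1, an adhesion receptor gene, was at 19.4, 20.9 and 25.9 and then at 95.6, 135 and 194 (2.68 ± 0.40, adjusted p = 0.00311), and Cd4, which some macrophages express, at 41.1, 29.0 and 27.6 and then at 160.4, 149 and 132 (2.176 ± 0.30, adjusted p = 0.00155).

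Several of the largest rises were genes of other cell types, and marker levels of those cells differed between the libraries. Fibroblast and meningeal stroma markers (14 of 14 tested, 2 called up) summed to 107, 93.2 and 865 CPM of the total at E14.5 and to 735, 2210 and 3259 at P3. Cpz, a secreted carboxypeptidase gene, followed with 0.174, 0.403 and 0.278 TMM CPM and then 6.02, 33.5 and 52.5 (6.71 ± 0.89, adjusted p = 0.00117). Cxcl12, a chemokine gene of stromal cells, was at 0.564, 2.13 and 3.37 and then at 16.4, 40.3 and 44.3 (4.05 ± 0.89, adjusted p = 0.0306), and Sparc, a matrix protein gene, at 18.1, 14.2 and 98.3 and then at 135, 288 and 540.3 (2.88 ± 0.70, adjusted p = 0.05). Ecrg4 (4.38 ± 0.99, adjusted p = 0.0355) and Cpxm1 (4.20 ± 1.003, adjusted p = 0.0474) showed the same order of libraries at P3, with replicate 3 highest and replicate 1 lowest. Cpz kept its call without each of the 6 libraries, while Cxcl12 and Cpxm1 lost theirs without 5 and Ecrg4 and Sparc without 4 (adjusted p up to 0.208). Of the 14 fibroblast and stroma markers, 2 went the other way. Pdgfra had 257 counts over the E14.5 libraries and 11 over the P3 libraries, and Dpt had 20 and 0. The part of stromal RNA in the rises was not tested.

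Mast cell markers (10 tested, 1 called up) summed to 129, 5.94 and 2.15 CPM of the total at E14.5 and to 645, 1776 and 1154 at P3. Mcpt4, a mast cell chymase gene, was at 0.260, 0.367 and 0.348 TMM CPM and then at 68.0, 185 and 128 (8.58 ± 1.94, adjusted p = 0.0359), a call lost without any 1 library (adjusted p up to 0.168). Cpa3, another mast cell protease gene, was at 59.8 TMM CPM in E14.5 replicate 1 but at 0.623 and 0.313 in the others, and at 162, 516 and 340 at P3; it did not pass (adjusted p = 0.286). Summed monocyte markers (CPM of the total) were 26.1 to 57.0 in the embryo and 80.4 to 107 at P3, osteoclast markers to 263 to 779 and 985 to 1542. Endothelial markers summed to 61.3 to 63.3 and 91.9 to 117, but Egfl7, the member called, gave most of these counts (3353 over the E14.5 libraries and 6678 over the P3 libraries), while Pecam1 had 587 and 122 and Tie1 137 and 2. The median log2 change of the 8 tested endothelial markers was -0.52. Erythroid sums overlapped between the ages (139 to 384 and 126 to 280), but members moved in opposite directions. Hbb-y had 6956 counts over the E14.5 libraries and 172 over the P3 libraries, while Hbb-bs had 3315 and 6345. Of 11 tested erythroid markers, 7 had a positive log2 change and 4 a negative one. T and NK cell markers other than Cd4 had few counts. Those of Cd3e (0 over the E14.5 libraries and 23 over the P3 libraries), Cd3d (0 and 52), Cd3g (0 and 28) and Cd8a (0 and 32) were all at P3. Nkg7 (3 and 120) and Gzma (3 and 6) also had more at P3. Trac (37 and 13), Klrb1c (1 and 0) and Ncr1 (1 and 0) went the other way. Neutrophil markers summed to 33.0 to 35.5 CPM of the total in the embryo and to 125, 238 and 22.8 at P3. Csf3r gave most of the embryonic counts and had fewer at P3 (2301 and 1729 over the libraries of each age). The other members had more at P3, S100a8 with 8 and 1917 counts. By edgeR 0 of 6 tested were called (3 at an unadjusted p under 0.05), and by DESeq2 there were 2 rises. Mural cell sums did not overlap (3.54 to 6.28 and 19.6 to 27.0), but Acta2 gave most of the P3 counts. It had 138 over the E14.5 libraries and 1031 over the P3 libraries, while Myh11 had 5 and 3. By edgeR 0 of 7 tested mural markers were called, by DESeq2 there was 1 rise, and 1 of the 7 was higher at P3 without overlap. The part of these other cells in the results was not tested.

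**Figure D5:**
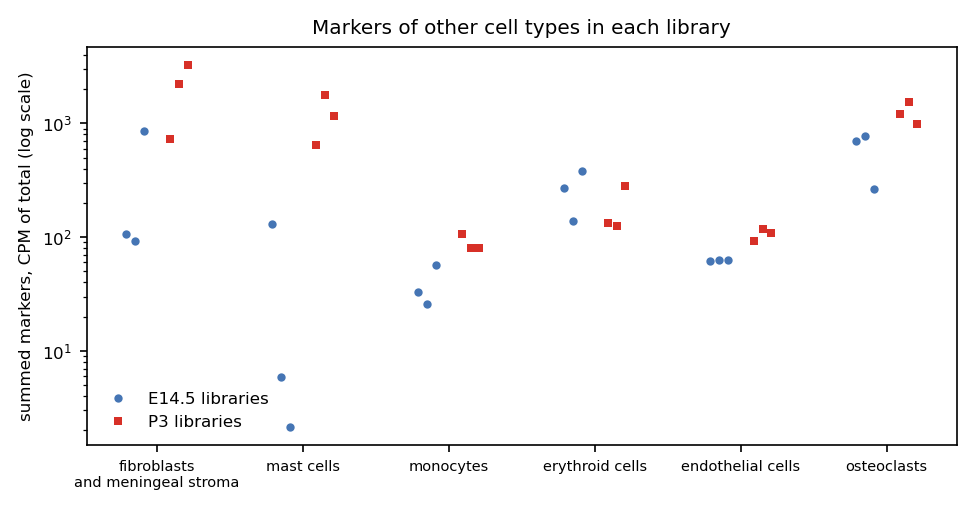
Summed markers of 6 other cell types in each E14.5 (circles) and P3 (squares) library, in CPM of the total on a log axis. Fibroblast sums overlap between the ages only through E14.5 replicate 3 (865), and mast cell sums run from 2.15 to 129 at E14.5 and from 645 to 1776 at P3.

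Whether the change up to P3 differed from the change that followed was tested gene by gene, as the log2 change from E14.5 to P3 minus that from P3 to P10. Both steps use the P3 libraries, so a P3 level off in 1 direction enters both. The difference was called for 27 of 14683 genes (0.184%), 18 upward (0.123%) and 9 downward (0.0613%). Immediate early genes made up 6 of the 9 downward calls (Btg2, Egr1, Ier2, Jun, Dusp1 and Ier5), each lower at P3 than at both neighbouring ages. Dusp1 was at a mean of 1612 ± 35.6 TMM CPM at E14.5, 964 ± 48.3 at P3 and 2167 ± 234 at P10 (difference -1.91 ± 0.18, adjusted p = 0.000228). Btg2, an antiproliferative early gene, was at 912, 873 and 911, then at 607, 706 and 478, and at P10 at 1880, 2542 and 2191 (difference -2.47 ± 0.34, adjusted p = 0.00547), although its change to P3 alone did not pass (-0.59 ± 0.18, adjusted p = 0.139). For Egr1 the difference was -2.46 ± 0.30 (adjusted p = 0.00233), and its mean of 1695 ± 270 TMM CPM at P10 stayed well below the embryonic 5054 ± 219.

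Upward calls fell into 2 patterns. Some genes peaked at P3: Hgsnat was at a mean of 549 ± 50.7, 1044 ± 109 and 542 ± 64.9 TMM CPM at E14.5, P3 and P10 (difference 1.87 ± 0.22, adjusted p = 0.00212), and Cdkn1c at 24.5 ± 9.49, 141 ± 46.4 and 69.4 ± 4.04 (3.55 ± 0.46, adjusted p = 0.00376). The interferon genes Irf7 (2.79 ± 0.51, adjusted p = 0.0499), Ifi27l2a (3.05 ± 0.46, adjusted p = 0.0131) and Oas1a (1.91 ± 0.33, adjusted p = 0.0313) had lower means at P10 than at P3 as well, with Irf7 at 87.7 ± 30.05 and then 36.0 ± 2.28. Others rose to P3 and then changed less: H2-D1 was at 2190 ± 139 TMM CPM at P3 and 2599 ± 207 at P10 (difference 1.40 ± 0.18, adjusted p = 0.00293), H2-K1 at 1129 ± 70.8 and 1240 ± 109 (1.70 ± 0.24, adjusted p = 0.00648), H2-M3 at 88.1 ± 4.34 and 88.1 ± 14.3 (1.90 ± 0.27, adjusted p = 0.00648), and Cfp at 642 ± 17.9 and 720.1 ± 11.3 (1.66 ± 0.17, adjusted p = 0.000769). Cbr2 went on rising in mean, to 1400 ± 145 TMM CPM, but by a far smaller factor (difference 3.84 ± 0.19, adjusted p = 1.64e-07). Counts of step calls ran from 14 to 30 with 1 library left out, with the lowest without P3 replicate 2.

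Over the 3 later ages, used here only as a description since they share the fit, most risen genes stayed high. The P56 libraries are not among the 12 of the shared sequencing project, so age and project cannot be told apart for their levels. Of the 245, 239 had their lowest mean at E14.5, and the highest mean was at P3 for 16, at P10 for 46, at P21 for 55 and at P56 for 128. Lyz2 reached a mean of 23138 TMM CPM at P56 from 4155 ± 664 at P3, and Cd74 reached 15253 from 180.0 ± 44.5. Of the 57 genes that fell, 44 had their highest mean at E14.5, and 25 had their lowest mean already at P3 and 20 at P56. Slc2a1 had a mean of 12.8 ± 4.35 TMM CPM at P3 and of 20.9 at P56, Mcm5 went down further, from 207 ± 13.2 to 39.1, and F13a1 came back from 3017 ± 175 to 3998.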

How the data were processed

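Deposited values were whole-number counts per gene symbol for 53546 symbols, made by the authors with bcl2fastq 2.18, STAR 2.7.8a and featureCounts 2.0.2, per the submitters' processing notes; genome build, annotation, strand setting and treatment of multi-mapping reads are not given in the sources used here. Totals of the E14.5 and P3 libraries ran from 17550170 to 30281520 counts. Libraries of the same age differed by far more than counting noise (chi-square per degree of freedom 25.84 to 74.79 over pairs). Genes were filtered by edgeR's filterByExpr over the 5 ages (14683 kept) and tested with edgeR 4.0.16 (R 4.3.3; TMM factors, robust quasi-likelihood fit of all 15 libraries, age as the term), with Benjamini-Hochberg adjustment over all genes and calls at an adjusted p under 0.05. The script was tested on simulated data for P3 against E14.5 (14029 genes, 4.26% of calls false): 16.4% of 2-fold, 56.7% of 4-fold and 62.1% of 8-fold changes were recovered. The comparison, the 53 gene lists and the tests were chosen with earlier results of these data known. The rule named, at a mean of at least 20 TMM CPM, the 12 largest called changes by fold and 6 by level each way, up to 4 members per list and 6 step genes each way; other genes were chosen after their values were seen. Alternatives used DESeq2 1.42.0, limma 3.58.1, other scaling, filters and sample sets. Promoter windows came from RefSeq (GRCm38.p6) by symbol.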

Additional observations from a re-analysis of the deposited data

How the results depend on the processing

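The 302 calls between E14.5 and P3 became 681 with only these ages fitted and 822 with DESeq2 (615 up, 207 down), and 127 to 198 with 1 library left out. limma voom called 316 genes, 184 up and 132 down, so that 58.2% were rises. All 302 log2 changes kept their sign under each alternative that gave a value. The 27 step calls became 70 without a filter, 59 with only the ages compared, 45 with the 12 libraries of the shared project, 156 with DESeq2 and 14 to 30 with 1 library left out. Settings on sex were chosen after seeing the data: with sex as a term 20 and 14 genes were called for the change and the step, and without the Xist-positive embryonic libraries 22 and 11. Only 2 libraries were Xist-positive, both from E14.5, so under both settings on sex the change rests on E14.5 replicate 3 alone. These settings are therefore close to 1 fit and are not separate checks. They cannot tell sex from the loss of 2 of the 3 embryonic libraries. The median ratio of the 302 log2 changes to the reported ones was 0.962 with the term and 0.984 without these libraries. The cause of the shifts in the number of calls was not tested.

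With the replicate block in 12 libraries, 306 and 27 genes were called. Deviations from the age mean in E14.5 and P3 libraries of the same number had correlations of 0.021, 0.003 and 0.046. No correlations of differently numbered libraries were set beside them, so these values cannot decide whether replicate numbers pair the libraries.

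Csf1r, near 0 in the reported fit (log2 change -0.01), changed sign with RLE factors and DESeq2 (both 0.0046), upper quartile factors (0.0504), no filter (0.0272), 5 CPM in 3 libraries (0.0078), 12 libraries (0.0061), the replicate block (0.0144) and some fits with 1 library left out (-0.0777 to 0.0447). The Y-linked Kdm5d ran from -0.17 to 3.65 with 1 library left out, reversed without P3 replicate 2, and was also reversed with sex as a term (-0.86) and without the Xist-positive libraries (-0.84), and Uty under the last 2 settings (-0.22 and -0.20).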

Other observations

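Genes outside the lists, chosen after their values were seen, included a neighbouring family on chromosome 1 of interferon-inducible DNA-binding proteins. Ifi203 was at 3.99, 7.51 and 3.41 TMM CPM at E14.5 and at 19.99, 25.9 and 24.4 at P3 (log2 change 2.23 ± 0.33, edgeR adjusted p = 0.00306). Ifi209 rose by 1.85 ± 0.30, Ifi211 by 1.32 ± 0.25 and Mndal by 1.04 ± 0.20 (edgeR adjusted p = 0.0052, 0.0142 and 0.0144). Calls of Ifi203 and Ifi209 held without each of the 6 libraries, while Ifi211 and Mndal lost theirs without 3 and 4 of them. Members of this family are similar in sequence, so the split of reads between them is uncertain.

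Falls and rises picked singly in the same way included the following. Srsf5, a splicing factor, was at 133, 127 and 122 TMM CPM and then at 66.4, 76.4 and 59.5 (-0.92 ± 0.17, edgeR adjusted p = 0.0124), and Pcf11, which acts in transcript cleavage, at 109.9, 103 and 97.7 and then at 47.2, 40.7 and 49.2 (-1.18 ± 0.22, edgeR adjusted p = 0.0115). Their libraries did not overlap, but Srsf5 lost its call without 3 of the 6 libraries and Pcf11 without 1. Pla2g7, which encodes an enzyme that inactivates platelet-activating factor, was at 127, 86.7 and 104 and then at 364, 348 and 473 (1.90 ± 0.21, edgeR adjusted p = 0.000359), a rise that held without each of the 6 libraries.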
